A study of Homo sapiens with 6 samples.

Results

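DNAJ proteins, HSP70-class chaperones and the heat shock proteins that work with them were examined in PC3 cells, an established human prostate cancer line from a bone metastasis. The members were all probe sets whose only annotated symbol was DNAJA, DNAJB, DNAJC, HSPA, HSPB, HSPD, HSPE or HSPH with a number, which gave 48 genes on 75 of the 22277 probe sets, out of 11963 genes with a probe set of their own. A member counted as expressed, and was tested, where a probe set exceeded the overall median intensity of 52.5 on 3 or more arrays. That held for 38 genes and 56 probe sets, and 10 genes stayed below it. RNA of 3 samples labelled PSMA, said to be transfected with the pLNCX-PSMA plasmid (3 µg with 2 µg FuGENE 6 for 30 min), and of 3 control samples was hybridised to 1 Affymetrix array each, after 72 h of recovery and puromycin selection. The control samples are called wild type in their titles and genotype, but received empty vector according to their source label and the treatment protocol, and both groups grew in RPMI. The labels do not say whether either line was a clone, or whether each sample was its own culture, so p-values rest on a sample-to-sample spread that may be purely technical. PSMA, the product of FOLH1, is a cell-surface carboxypeptidase. The question of the series was which transcripts differ when PC3 cells express it.

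The signal on FOLH1 probe sets went against the labels. The brightest one, shared by FOLH1 and its near-identical paralog FOLH1B, read 15.1, 8.58 and 13.7 on the arrays labelled PSMA, against 477, 417 and 548 on the arrays labelled control. The probe set of FOLH1 alone averaged 28.1 ± 3.80 on the arrays labelled PSMA and 60.5 ± 0.914 on those labelled control (SD, n = 3 each). On both, every array labelled PSMA lay below every array labelled control, so each direction below follows labels that this signal contradicts. Log2 values correlated across probe sets at r = 0.9975 to 0.9981 within groups and at 0.9875 to 0.9879 between them. All 5 epithelial markers passed the filter, with a summed intensity of 13233 to 13716 on arrays labelled PSMA and 16514 to 17012 on arrays labelled control. Of 10 leucocyte, fibroblast and endothelial markers measured, COL1A1 and PECAM1 passed, at means of 90.5 and 58.2 on arrays labelled PSMA against 83.1 and 50.6 on arrays labelled control. The other 3 fibroblast markers were lower on arrays labelled PSMA, LUM at 6.26 there and 35.1 on arrays labelled control, with no overlap, and COL1A2 and PDGFRB by under 0.1 on the log2 scale. The summed leucocyte markers read 44.3 to 48.2 on arrays labelled PSMA and 38.9 to 44.8 on arrays labelled control, the fibroblast markers 128 to 140.1 on arrays labelled PSMA and 152 to 159 on arrays labelled control, and the endothelial markers 78.8 to 91.4 on arrays labelled PSMA and 70.0 to 84.6 on arrays labelled control. No marker was at 0, since the lowest value in the table is 3.76. The prostate markers KLK3 and KLK2 did not pass, at 15.8 and 18.7 on arrays labelled PSMA and 14.3 and 16.4 on arrays labelled control. The part of any of these markers in the results below was not tested.

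HSP70 proteins bind exposed stretches of unfolded protein in a cycle driven by ATP. J domain proteins (DNAJA, DNAJB and DNAJC) deliver clients and trigger ATP hydrolysis, and nucleotide exchange factors such as HSPH1, HSPA4 and the BAG proteins reset the cycle. Each compartment has its own set: HSPA8 and the HSPA1 pair in the cytosol, HSPA5 (BiP) in the endoplasmic reticulum, and HSPA9 (mortalin) in mitochondria, where the chaperonin HSPD1 with HSPE1 acts downstream. DNAJC15, also called MCJ, sits in the mitochondrial inner membrane, where it has been tied to protein import and to restraint of respiratory complex I. Heat stress induces cytosolic members through the factor HSF1 at heat shock elements, and unfolded protein in the endoplasmic reticulum induces BiP through ER stress elements.

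Promoters of 6 members are shown because the results turn on these genes or because their start regions carry the regulatory motif named for their family. Each window holds 250 bases before and 50 bases after a transcription start in RefSeq (build GRCh38.p14), printed 5′ to 3′ on the gene's strand, with capitals marking a motif match. The heat shock element was searched as GAA, 2 bases of any kind, TTC, 2 of any kind and GAA. The ER stress element was searched as CCAAT, 9 bases of any kind and CCACG, and both were sought on either strand. DNAJC15 (chr13:43023336-43023635, plus strand) and HSPH1 (chr13:31162339-31162638, minus strand) hold neither motif in these windows. DNAJA1 (chr9:33025023-33025322, plus), DNAJB6 (chr7:157336754-157337053, plus) and HSPD1 (chr2:197499791-197500090, minus) hold the heat shock element, HSPD1 in overlapping copies, and HSPA5 (chr9:125241294-125241593, minus) holds the ER stress element.
DNAJC15: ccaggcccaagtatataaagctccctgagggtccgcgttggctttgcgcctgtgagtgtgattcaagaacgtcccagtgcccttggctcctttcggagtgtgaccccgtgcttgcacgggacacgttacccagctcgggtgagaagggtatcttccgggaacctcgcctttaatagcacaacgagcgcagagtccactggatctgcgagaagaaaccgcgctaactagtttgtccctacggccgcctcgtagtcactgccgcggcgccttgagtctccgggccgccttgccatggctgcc
HSPH1: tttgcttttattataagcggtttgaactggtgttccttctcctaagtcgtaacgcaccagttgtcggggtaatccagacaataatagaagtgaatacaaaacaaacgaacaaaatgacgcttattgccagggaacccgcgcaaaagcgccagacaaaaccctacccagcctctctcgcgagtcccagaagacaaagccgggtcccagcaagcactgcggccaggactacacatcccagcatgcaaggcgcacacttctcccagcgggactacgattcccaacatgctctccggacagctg
DNAJA1: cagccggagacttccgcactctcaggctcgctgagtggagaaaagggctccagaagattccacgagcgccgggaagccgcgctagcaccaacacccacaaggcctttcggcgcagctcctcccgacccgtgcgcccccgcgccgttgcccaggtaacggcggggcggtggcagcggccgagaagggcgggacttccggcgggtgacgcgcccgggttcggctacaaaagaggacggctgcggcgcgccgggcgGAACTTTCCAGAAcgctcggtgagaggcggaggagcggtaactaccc
DNAJB6: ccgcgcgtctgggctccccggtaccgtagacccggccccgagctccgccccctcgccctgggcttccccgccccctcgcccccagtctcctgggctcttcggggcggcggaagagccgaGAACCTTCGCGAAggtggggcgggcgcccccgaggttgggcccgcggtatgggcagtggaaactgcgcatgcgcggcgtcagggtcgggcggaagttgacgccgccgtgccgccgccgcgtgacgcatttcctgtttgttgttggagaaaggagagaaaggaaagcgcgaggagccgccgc
HSPD1: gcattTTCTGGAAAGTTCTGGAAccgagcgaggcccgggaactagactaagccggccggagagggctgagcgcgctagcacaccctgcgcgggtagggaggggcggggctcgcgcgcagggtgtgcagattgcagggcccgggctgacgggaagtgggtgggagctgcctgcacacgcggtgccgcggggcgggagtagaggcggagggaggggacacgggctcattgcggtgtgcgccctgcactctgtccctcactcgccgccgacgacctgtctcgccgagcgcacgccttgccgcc
HSPA5: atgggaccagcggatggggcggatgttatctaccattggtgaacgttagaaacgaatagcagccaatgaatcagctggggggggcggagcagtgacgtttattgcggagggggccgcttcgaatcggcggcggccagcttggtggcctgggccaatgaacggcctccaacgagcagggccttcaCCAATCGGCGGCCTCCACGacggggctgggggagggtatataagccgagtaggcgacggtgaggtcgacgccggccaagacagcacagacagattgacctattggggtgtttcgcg

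The RefSeq set holds 54 promoters of 43 members, of which 4 promoters, each of a different gene (the 3 shown and HSPA6), held the heat shock element, as did 0.490% of all 35116 promoters. The ER stress element was present in 1 of the 54 and in 0.0769% of all promoters. A match describes the letters of the window and is not a measured binding site. Of the members with a heat shock element, DNAJA1 fell slightly, DNAJB6 and HSPD1 did not pass the test and HSPA6 lay below the filter, with values given below.

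DNAJC15 stood far apart from every other member. It read 741, 684 and 682 on the arrays labelled PSMA, against 15.3, 14.2 and 13.2 on the arrays labelled control. These processed intensities are linear and in arbitrary units. The PSMA-labelled mean of 702 ± 33.1 (SD, n = 3) lay at percentile 88.0 of all probe sets, and the control-labelled mean of 14.2 ± 1.02 at percentile 27.2. The gap was 5.63 on the log2 scale, or 49.5-fold, and 0 of the 7035 tested genes had a larger increase. DNAJC15 was set apart for this size and passed the filter through the arrays labelled PSMA alone, so it is described without a test and left out of the counts below. Its control level was near the dim end of the table, whose arrays had a 25th percentile of 12.7 to 13.3, and with 32 added before the logarithm the gap was 3.99. In bulk RNA, more cells with the transcript and more transcript per cell cannot be told apart. The gene has 1 probe set here and lies at chr13:43023586-43114213 (GRCh38.p14).

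**Figure D1:**
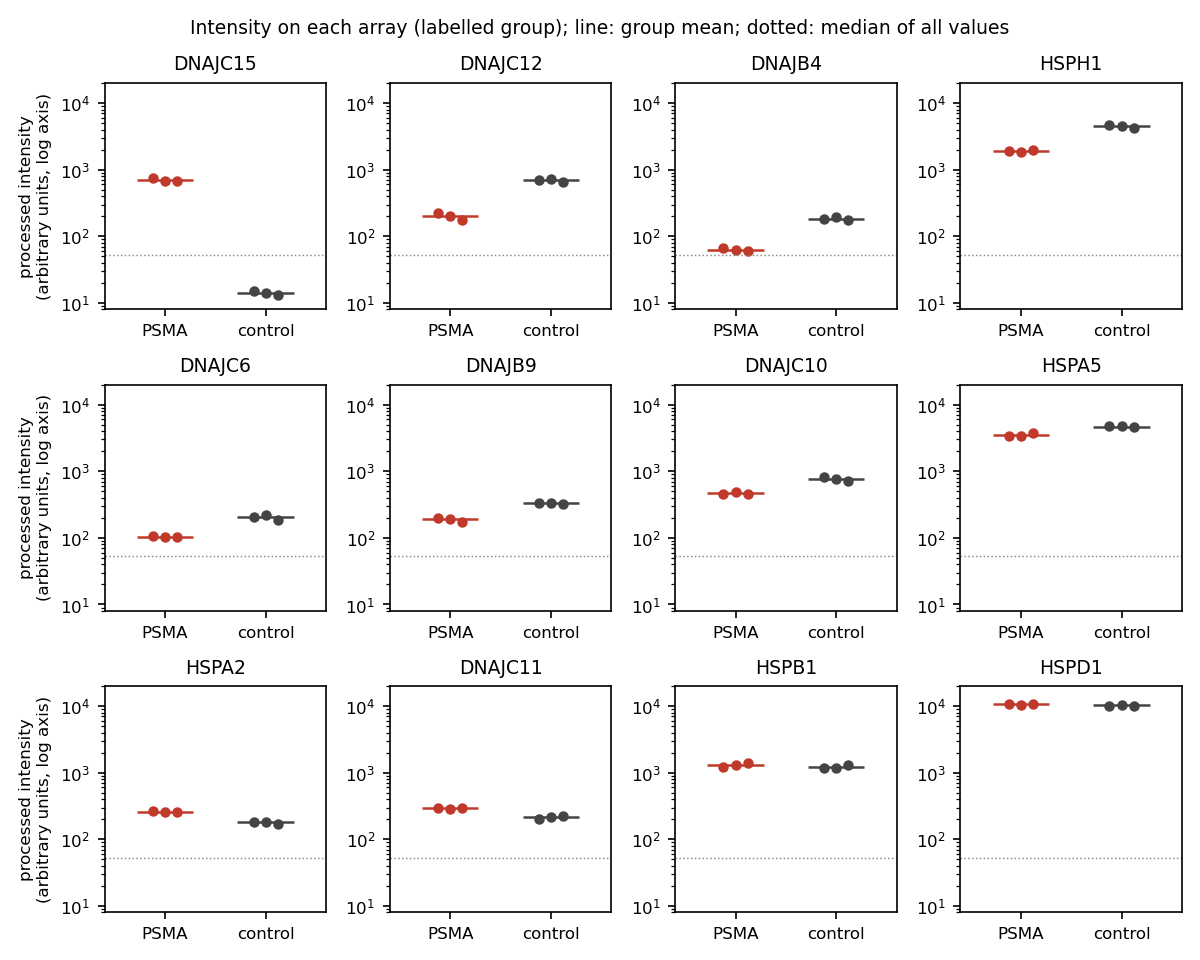
Processed intensity (arbitrary units, log axis) of 12 members on each array, labelled PSMA at left and control at right, with lines at the group means and a dotted line at the median of all values. DNAJC15 is above 680 on arrays labelled PSMA and below 16 on arrays labelled control, DNAJC12, DNAJB4, HSPH1 and DNAJC6 are lower on arrays labelled PSMA, and HSPB1 overlaps.

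The other 37 tested members, each above the median on all 6 arrays, went both ways. On arrays labelled PSMA 10 were higher and 14 lower, and 13 did not pass limma's threshold (adjusted p under 0.05). The number higher was 6 without control replicate 1 and 6 without control replicate 2. Over all tested genes 63.6% passed, 30.1% higher and 33.5% lower, so the share of members that passed is close to the background. The groups did not overlap in 26 of the 37, against 69.5% of all tested genes. The median log2 difference was 0.02 and the median size 0.24, against -0.01 and 0.22 over all tested genes. With DNAJC15 left out, the largest decreases exceeded the largest increases. Log2 differences ran from -1.80 to 0.54, and the 3 members that differed by 2-fold or more (DNAJC12, DNAJB4 and HSPH1) were all lower. Over all tested genes 4.41% differed by 2-fold or more, a share not split here by direction. Set against a minimum fold of 1.5 with limma's treat, 5 members passed, DNAJC6 and DNAJB9 besides these, and all 5 were lower. By that test 7.48% of all tested genes passed, also not split by direction. In it 0 members were higher at an adjusted p under 0.05 or at an unadjusted one.

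**Figure D2:**
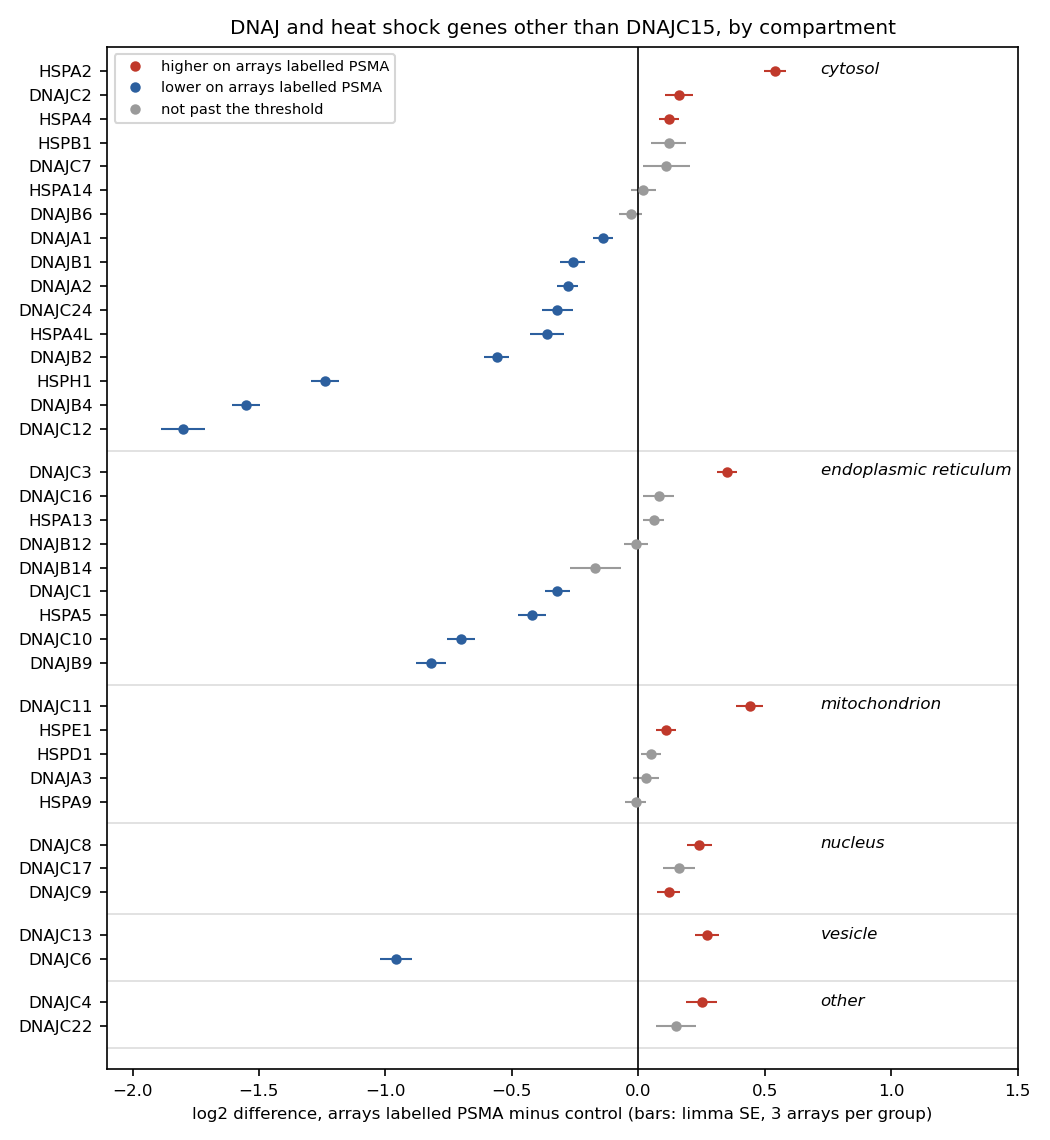
Log2 difference of each of the 37 members other than DNAJC15, arrays labelled PSMA minus arrays labelled control, grouped by the compartment of the protein, with limma's SE as bars and colours for the call at an adjusted p under 0.05. The decreases reach -1.80 in the cytosol and -0.82 in the endoplasmic reticulum, and the mitochondrial members lie between -0.01 and 0.44.

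In the cytosol, 9 of 16 tested members fell and 3 rose on arrays labelled PSMA, where 33.5% of all tested genes fell and 30.1% rose. DNAJC12, a partner of the enzymes that hydroxylate aromatic amino acids, read 227, 201 and 175 on arrays labelled PSMA and 699.7, 725 and 664 on arrays labelled control. It was 3.48-fold lower (log2 difference -1.80, SE 0.0877, limma adjusted p = 6.76e-07). DNAJB4, a close relative of the heat-inducible DNAJB1, read 66.4, 62.3 and 60.6 on arrays labelled PSMA and 184, 195 and 176 on arrays labelled control, 2.93-fold lower (limma adjusted p = 1.14e-07). Neither pair of groups overlapped, and on arrays labelled PSMA DNAJB4 came close to the median of all values.

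DNAJA1, the brightest DNAJA member, read 2437, 2419 and 2520 on arrays labelled PSMA, against 2744, 2675 and 2686 on arrays labelled control (log2 difference -0.14, limma adjusted p = 0.0181, lost without PSMA replicate 5, adjusted p = 0.0715, without control replicate 1, adjusted p = 0.0645, or with no filter on dim values, adjusted p = 0.0558). DNAJA2 read 817, 792 and 816 on arrays labelled PSMA, against 987, 963 and 995 on arrays labelled control, and fell by 0.28. DNAJB1, the classical HSP40, read 673, 711 and 697 on arrays labelled PSMA, against 805, 814 and 877 on arrays labelled control, and fell by 0.26 (limma adjusted p = 0.00166). In all 3 the groups did not overlap, and each change was under 1.5-fold. DNAJB2, which carries ubiquitin-interacting motifs, was 1.48-fold lower and DNAJC24, which acts in diphthamide synthesis, 1.25-fold lower. DNAJB6, a suppressor of protein aggregation with a heat shock element in the promoter printed above, averaged 514 ± 13.8 on arrays labelled PSMA and 525 ± 17.7 on arrays labelled control (SD, n = 3 each), and did not pass (log2 difference -0.03). DNAJC7, which binds both HSP70 and HSP90, had 0.11 and did not pass either. DNAJC2, a ribosome-bound J protein, was 0.16 higher on the log2 scale (limma adjusted p = 0.034), a call lost with median-centred arrays, with no filter on dim values (adjusted p = 0.0844) and without any 1 of PSMA replicates 4 and 6 and control replicates 1 to 3.

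The exchange factors and HSP70s themselves moved in different directions. HSPH1 (HSP105), which exchanges nucleotide on cytosolic HSP70, read 1876, 1816 and 1983 on arrays labelled PSMA, against 4655, 4580.3 and 4196 on arrays labelled control. It was 2.37-fold lower (log2 difference -1.24, SE 0.0561, limma adjusted p = 4.58e-07), and it was among the brightest members on all 6 arrays. Its relative HSPA4L fell by 0.36 on the log2 scale, whereas HSPA4 was 0.12 higher (limma adjusted p = 0.0266), a small call lost with no filter on dim values (adjusted p = 0.0755) or without any 1 of PSMA replicates 4 and 5 and control replicates 1 and 2. HSPA2, an HSP70 known for its role in sperm formation, was the member with the largest increase after DNAJC15. It read 262, 259 and 259 on arrays labelled PSMA, against 179.9, 185 and 172 on arrays labelled control, 1.45-fold higher (limma adjusted p = 1.25e-05) with no overlap. HSPA14, a ribosome-associated HSP70, did not pass (log2 difference 0.02). The small heat shock protein HSPB1 (HSP27) read 1219.8, 1325 and 1420.4 on arrays labelled PSMA, against 1156, 1181 and 1306 on arrays labelled control; the groups overlapped and it did not pass (limma adjusted p = 0.155).

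The stress-inducible HSPA1A and HSPA1B are near-identical, and their probe sets carry both symbols, so they lie outside the rule. The probe set annotated to both that was brightest read 1864, 1862 and 1986 on arrays labelled PSMA and 2128, 2106 and 2055 on arrays labelled control, a log2 difference of -0.14 (limma over all expressed probe sets, adjusted p = 0.0290). The other probe set of the pair had -0.13 and the one shared with HSPA1L -0.05, and neither passed (adjusted p = 0.0771 and 0.563, limma). No value is assigned to either gene alone. HSPA8, the constitutive HSP70, was not analysed here because its probe sets also carry symbols of small nucleolar RNAs.

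Of 9 members tested in the endoplasmic reticulum, 4 were lower on arrays labelled PSMA, 1 was higher and 4 stayed short of the threshold, a share called that is near the 63.6% of all tested genes. The members that fell included the lumenal HSP70 and several of its helpers. HSPA5 (BiP) read 3364, 3384 and 3745 on arrays labelled PSMA, against 4758, 4769.5 and 4529 on arrays labelled control, a fall of 0.42 on the log2 scale (SE 0.0543, limma adjusted p = 0.000177). DNAJB9 (ERdj4), which helps BiP restrain the stress sensor IRE1, averaged 189 ± 12.9 on arrays labelled PSMA and 332 ± 9.47 on arrays labelled control (SD, n = 3 each), 1.76-fold lower. DNAJC10 (ERdj5), a disulphide reductase, read 462, 482 and 453 on arrays labelled PSMA, against 809, 752 and 714 on arrays labelled control, 1.63-fold lower. DNAJC1, a membrane protein with a lumenal J domain, was 1.25-fold lower. In these 4 genes every array labelled PSMA was below every array labelled control. DNAJC3 (p58IPK), another lumenal BiP helper, went the other way, with 91.1, 92.2 and 90.1 on arrays labelled PSMA and 71.4, 70.4 and 72.3 on arrays labelled control (log2 difference 0.35, limma adjusted p = 7.84e-05). DNAJB12 and DNAJB14, whose J domains face the cytosol, had log2 differences of -0.01 and -0.17, DNAJC16 had 0.08 and HSPA13, a microsomal HSP70-like ATPase, 0.06, and none of these 4 passed. DNAJB14 rested on single arrays: it had -0.05 without control replicate 2, and -0.27 without control replicate 3, where it passed (limma adjusted p = 0.0242).

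Of the 5 mitochondrial members tested besides DNAJC15, 2 rose and 3 did not pass, where 63.6% of all tested genes passed and 30.1% rose. HSPD1 (HSP60), the brightest member in the table, read 10591, 10529 and 10574 on arrays labelled PSMA, against 10127, 10349 and 10183 on arrays labelled control; the groups did not overlap, but the log2 difference of 0.05 did not pass (limma adjusted p = 0.307). HSPE1 (HSP10), which caps the HSP60 chamber, read 3149, 3251 and 3258 on arrays labelled PSMA, against 2991, 2945 and 3007 on arrays labelled control (log2 difference 0.11, limma adjusted p = 0.0387). That call was lost with median-centred arrays, with no filter on dim values and when PSMA replicate 5 or 6 or control replicate 1 or 2 was left out. HSPA9, the matrix HSP70 on which import rests, averaged 2477 ± 67.6 on arrays labelled PSMA and 2491 ± 18.2 on arrays labelled control (SD, n = 3 each), and DNAJA3 (TID1), its matrix partner, 498 ± 17.9 on arrays labelled PSMA and 487 ± 22.0 on arrays labelled control; neither passed. DNAJC11, associated with the complex that shapes cristae, read 293, 288 and 291 on arrays labelled PSMA, against 201, 215 and 227 on arrays labelled control, 1.36-fold higher (limma adjusted p = 0.000113). DNAJC19, the closest relative of DNAJC15 in the import motor, was not analysed here.

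Members of the nucleus and of vesicles were few. DNAJC9, a histone co-chaperone and the brightest DNAJC member, read 3449, 3739 and 3612 on arrays labelled PSMA, against 3374, 3258 and 3272 on arrays labelled control (log2 difference 0.12, limma adjusted p = 0.042, not past it with quantile normalization, median-centred arrays, no filter on dim values (adjusted p = 0.103) or with any 1 of PSMA replicates 5 and 6 and control replicates 1 to 3 left out). DNAJC8, a splicing-associated protein, was 0.24 higher on the log2 scale on its brightest probe set, the only expressed one of the gene that passed. DNAJC17, another splicing-associated protein, had 0.16 and did not pass (limma adjusted p = 0.051). DNAJC17 did pass without PSMA replicate 6 (0.22) or control replicate 3 (0.20). DNAJC6 (auxilin), which uncoats clathrin vesicles with HSP70, read 105, 103 and 102 on arrays labelled PSMA, against 204, 218 and 183 on arrays labelled control, 1.95-fold lower (limma adjusted p = 3.61e-06). DNAJC13 (RME-8), which acts on endosomes, was 1.21-fold higher. DNAJC4 was 1.19-fold higher on its expressed probe set, while dimmer ones below the filter had log2 differences of -0.09 and -0.16. DNAJC22 did not pass (log2 difference 0.15, or 0.07 without PSMA replicate 6), except without PSMA replicate 4 (0.23).

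By symbol family, 4 of 7 DNAJB members fell (DNAJB1, DNAJB2, DNAJB4 and DNAJB9), and the other 3 had log2 differences from -0.17 to -0.01 without passing; the median was -0.26. Of 3 DNAJA members 2 fell and DNAJA3 did not pass. The 16 DNAJC members besides DNAJC15 split into 7 higher and 5 lower, with a median of 0.14, and the 7 HSPA members into 2 higher and 2 lower. The background share of genes past the threshold is the 63.6% above, 30.1% higher and 33.5% lower, and differences between families were not tested.

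The 10 members below the filter included most of the small heat shock proteins. HSPB2, HSPB3, HSPB6, HSPB7 and HSPB8, known mainly from muscle and heart, had means of 6.89 to 16.8 on arrays labelled PSMA and 5.57 to 16.9 on arrays labelled control, near or below the 25th percentile of the arrays. The strictly inducible HSPA6 averaged 29.0 ± 0.766 on its brighter probe set on arrays labelled PSMA and 42.6 ± 1.02 on arrays labelled control (SD, n = 3 each). The testis gene HSPA1L averaged 32.6 ± 1.43 on arrays labelled PSMA and 28.1 ± 1.26 on arrays labelled control. DNAJC28 averaged 18.6 ± 1.08 on arrays labelled PSMA and 35.6 ± 5.02 on arrays labelled control, and DNAJB5 32.3 ± 2.60 on arrays labelled PSMA and 28.1 ± 0.430 on arrays labelled control. DNAJA4 lay just outside the filter, with means of 49.6 on arrays labelled PSMA and 52.2 on arrays labelled control, while DNAJC4, the dimmest of the 37, had 84.9 on arrays labelled PSMA and 71.4 on arrays labelled control. With no filter on dim values, limma over 11963 genes called 4 of these 10, HSPA1L and HSPB6 higher (log2 differences 0.22 and 0.30, adjusted p = 0.0224 and 0.0227) and DNAJC28 and HSPA6 lower (-0.93 and -0.56, adjusted p = 0.000411 and 0.000135), beside 38.6% of all genes there.

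Several genes were measured more than once. Of 14 members with more than 1 expressed probe set, 12 had the same sign on all of them, a count that includes DNAJB4. HSPH1 gave -1.24 and -1.27, DNAJB9 -0.82 and -0.87, and DNAJC10 -0.70 and -0.60, so their decreases were seen on both probe sets. DNAJB4 gave -1.55 and -1.61, but its dimmer probe set passed the filter through the arrays labelled control alone. The filter thus fixed the direction of that probe set, and it adds no support. The first value in each case is that of the brightest probe set, which was the one tested. HSPA13 disagreed, at 0.06 on its brightest probe set and -0.36 on a dimmer one that passed (limma over all expressed probe sets, adjusted p = 0.00439). DNAJC8 had 0.24, 0.13 and -0.01, of which only the first passed (limma over all expressed probe sets, adjusted p = 0.00322, 0.0677 and 0.937). HSPA4 ran from 0.03 to 0.57. Over probe sets, 33 of the 55 expressed ones besides DNAJC15 passed, 12 higher and 21 lower, against 60.6% of all expressed probe sets. The 21 include the dimmer DNAJB4 probe set.

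**Figure D3:**
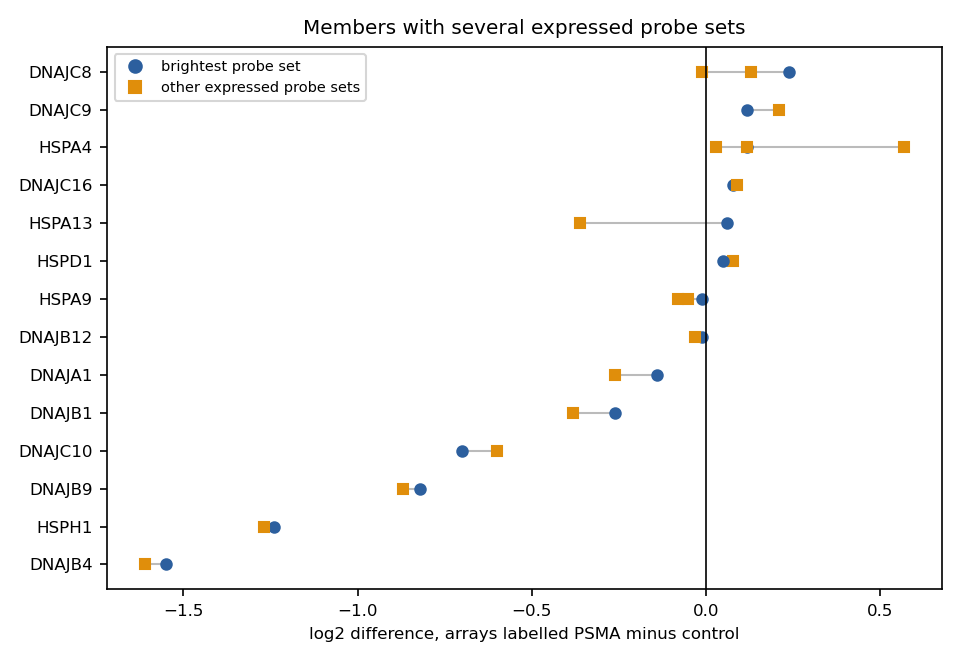
Log2 difference, arrays labelled PSMA minus arrays labelled control, of every expressed probe set of the 14 members that have more than 1, with the brightest as a circle and the others as squares. The probe sets of DNAJB4, HSPH1, DNAJB9 and DNAJC10 lie close together on the negative side, and those of HSPA13 lie on both sides of 0. The dimmer DNAJB4 probe set passed the filter through the arrays labelled control alone, so the filter fixed its direction.

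Members were also set beside the nearest tested genes on the chromosome. For each tested member the 5 tested genes on each side in reference order were read. The stretches covered differed: the farthest neighbour started 0.39 Mb away for DNAJC4 and 17.06 Mb away for DNAJC3. That distance was 2.31 Mb for DNAJC15, 2.68 Mb for HSPH1, 1.97 Mb for HSPA2 and 8.75 Mb for DNAJC24. It was 5.89 Mb for DNAJC12, 6.10 Mb for DNAJB4 and 6.35 Mb for DNAJB9. Around DNAJC15 on chromosome 13, 8 of 10 neighbours rose, 1 fell and 1 did not pass. Their median log2 difference was 1.21 and the highest 2.43 (GPALPP1), well under the 5.63 of DNAJC15 itself. Among those that rose, RGCC averaged 61.9 on arrays labelled PSMA and 22.5 on arrays labelled control. It passed the filter through the arrays labelled PSMA alone, so the filter fixed its direction. The neighbours nearest to DNAJC15 on either side, AKAP11 and TSC22D1, were 0.96 and 1.83 higher. For all counts of neighbours, the background is the 30.1% of tested genes that rose and the 33.5% that fell. Around HSPH1, on the same chromosome at chr13:31134973-31162388, all 10 neighbours fell, with a median of -1.28. HSPH1 at -1.24 lay within their range of -2.96 to -0.40. The -2.96 was that of FRY, with means of 10.4 on arrays labelled PSMA and 79.9 on arrays labelled control. FRY passed the filter through the arrays labelled control alone, so its direction was fixed in the same way. HSPA2 on chromosome 14 and DNAJC3 on chromosome 13 each had 9 of 10 neighbours higher, with medians of 1.0 and 0.63, larger than their own 0.54 and 0.35. DNAJC11 on chromosome 1 had 7 of 10 neighbours higher and 1 lower, with a median of 0.31 beside its own 0.44. DNAJC24 on chromosome 11 had 8 of 10 neighbours lower (median -0.67). Members also stood against their neighbours: HSPA13 had 0.06 beside a median of -0.62 over 5 neighbours, HSPA14 had 0.02 beside -0.40, and DNAJC7 had 0.11 with 7 of 10 neighbours lower.

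Other members with large differences had neighbour medians nearer to 0, though single neighbours did not all lie near 0. The neighbours of DNAJC12 had a median of 0.05 and ran from -0.51 to 0.49, against -1.80 for DNAJC12. Those of DNAJB9 had a median of -0.10 (from -0.75 to 0.47, 4 higher and 5 lower, own value -0.82). Those of HSPA5 had a median of -0.04 (from -0.40 to 1.08, 4 higher and 4 lower, own value -0.42). Those of DNAJC10 had a median of -0.11 (from -0.74 to 0.17, 0 higher and 4 lower, own value -0.70). Those of DNAJC6 had a median of -0.20 (from -0.45 to -0.00, 0 higher and 6 lower, own value -0.96). DNAJB4 had neighbours with a median of -0.34 and a lowest of -4.97, 6 of 10 lower, around its own -1.55. These are descriptions of up to 10 genes each, and the difference of a member from its neighbours was not tested. Whether the filter fixed the direction of a neighbour was examined only around DNAJC15 and HSPH1.

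**Figure D4:**
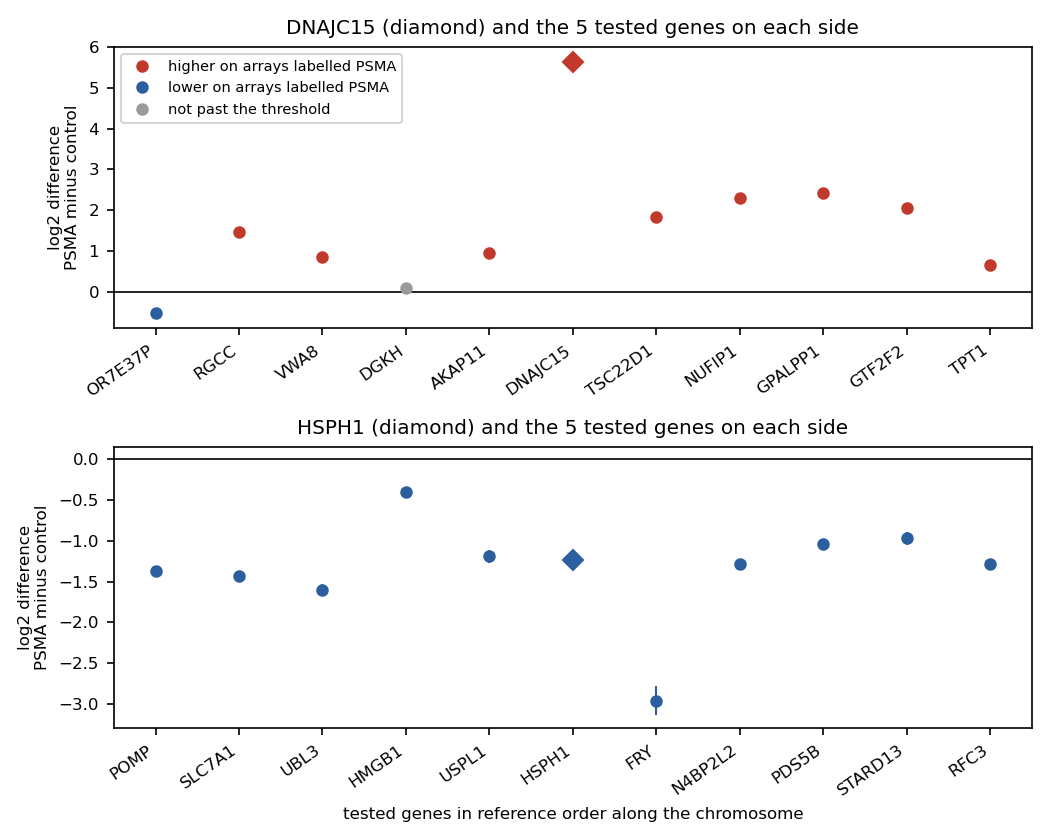
Log2 difference (arrays labelled PSMA minus arrays labelled control, limma SE as bars where larger than the symbol) of DNAJC15, HSPH1 and the 5 tested genes on each side, in order along chromosome 13. The diamond of DNAJC15 at 5.63 is above its highest neighbour at 2.43, and that of HSPH1 at -1.24 lies among its neighbours.

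**Figure D5:**
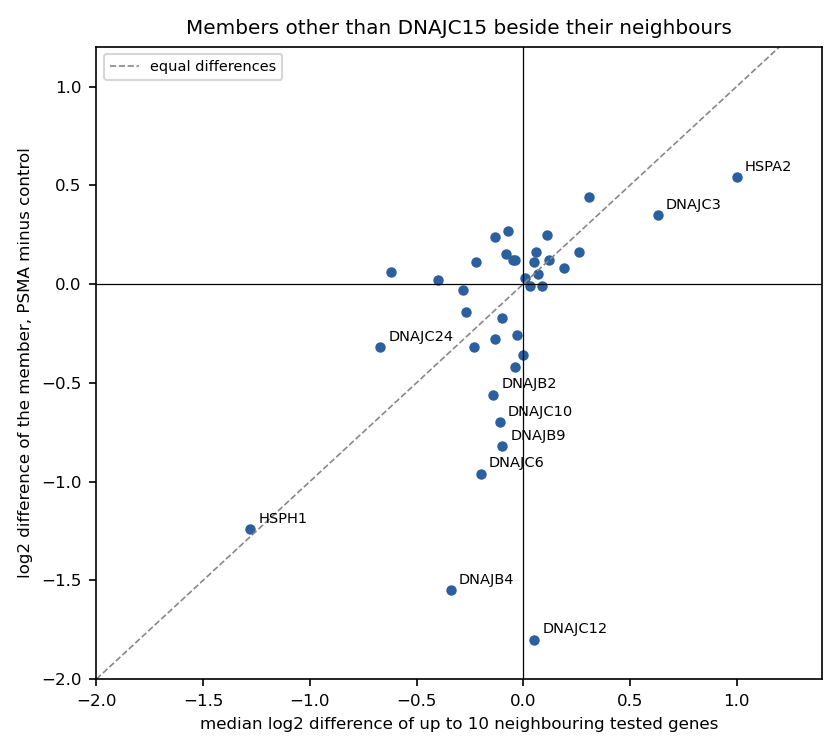
Log2 difference of each member other than DNAJC15 (vertical) against the median log2 difference of up to 10 tested neighbours (horizontal), both arrays labelled PSMA minus arrays labelled control, with a dashed line where they are equal. HSPH1 lies close to the line at -1.24 and -1.28, DNAJC12 and DNAJB4 lie far below it, and HSPA2 lies below it at 0.54 against 1.0.

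Other genes of the chaperone system were read from fixed lists. Of 43 tested genes in 5 lists, 12 rose, 14 fell and 17 did not pass. With quantile normalization 23 of the 43 passed, against 26 without it. Apart from that and the minimum fold, no alternative was counted for these lists. The background shares for these lists are again 63.6% past the threshold, 30.1% higher and 33.5% lower. Differences between a list and the background were not tested. The HSP90 system, which takes clients from HSP70, had 2 of 9 higher (TRAP1, the mitochondrial HSP90, 0.20, and the adaptor STIP1, 0.16), 1 lower and 6 not past the threshold, among them HSP90AA1 at 12532 ± 310.2 on arrays labelled PSMA and 12244 ± 278 on arrays labelled control (SD, n = 3 each). The 1 that fell was the co-chaperone FKBP4, from the immunophilin family, at -0.64 on the log2 scale.

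Of 11 tested regulators of the HSP70 cycle, 7 fell, 1 rose and 3 did not pass, with a median log2 difference of -0.15. Over all tested genes 33.5% fell, 30.1% rose and 63.6% passed. BAG2, an exchange factor that inhibits the ligase CHIP, averaged 449 ± 18.1 on arrays labelled PSMA and 693 ± 19.6 on arrays labelled control (SD, n = 3 each), 1.55-fold lower. HSF1, the master factor of the heat shock response, fell by 0.37, CHIP itself (STUB1) by 0.28 and GRPEL1, the exchange factor of HSPA9, by 0.36. The 1 that rose was BAG3, which couples HSP70 to autophagy and is itself induced by heat, at 1800.2 ± 20.2 on arrays labelled PSMA and 1139 ± 56.2 on arrays labelled control, 1.58-fold higher (limma adjusted p = 6.35e-06).

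The cytosolic chaperonin and prefoldin had 6 of 12 higher and 6 not past the threshold, led by the chaperonin subunit CCT6A (0.67) and the prefoldin subunit PFDN4 (0.44). Small differences were among the calls, such as CCT3 and CCT4, each 0.11 higher (limma adjusted p = 0.0359 and 0.0365). Genes of mitochondrial import, the machine DNAJC15 belongs to, went both ways, with 3 of 9 higher and 4 lower. TOMM20, a receptor of the outer membrane, averaged 1859 ± 52.7 on arrays labelled PSMA and 3255 ± 44.8 on arrays labelled control (SD, n = 3 each), 1.75-fold lower, and was the 1 gene of all 5 lists that passed against a minimum fold of 1.5. Of the inner membrane channel, TIMM17A was 0.52 higher and TIMM17B 0.42 lower. PAM16, the J-like partner that docks the import motor's J protein, was 0.33 lower, and TOMM34 was 0.56 higher. Among J domain genes with other symbols, SEC63, the translocon partner of BiP, fell by 0.32 and GAK, a relative of auxilin, by 0.19.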

How the data were processed

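The deposited values are linear intensities, 1 per probe set and array, made by the authors using GCRMA, as the submitters' processing notes name it. This method adjusts for probe-sequence background before arrays are normalized together, which weighs most on dim values. Its version and any later step are not given in the sources used here, and the linear scale was read from the values (3.76 to 17455). The number of arrays, 3 a group, limits precision.

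Values were log2-transformed with no pseudocount. Control probe sets (62) were left out, and 11303 probe sets passed the filter. Each of 7035 genes was represented by its brightest probe set annotated to it alone. Differences (PSMA minus control, as labelled) came from limma 3.58.1 (R 4.3.3), run over all of these genes, two-sided, with Benjamini-Hochberg adjustment, and tested on simulated data. Python 3.11.15 made summaries. Symbols came from GEO's platform annotation (19064 probe sets with 1 symbol, 1043 with several, 2108 unnamed), and 19052 of the first were found in RefSeq; positions and promoters from RefSeq (GRCh38.p14).

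Members, compartments, partner lists and named genes (in each family the brightest member and the largest change each way, in each list the largest changes each way) were chosen with earlier results of these data known. Reading the neighbours of members other than DNAJC15 was added after seeing values, and GRPEL1, STUB1, PAM16 and HSP90AA1 were named after seeing theirs. Alternatives covered scaling, pseudocount, floor, filter, probe set choice, variance model, a minimum fold and leaving out each array.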

Additional observations from a re-analysis of the deposited data

How the results depend on the processing

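No called member changed sign under any alternative tried, and 19 of the 24 called members other than DNAJC15 kept their call throughout, apart from the test against a minimum fold. The 5 that did not (DNAJA1, DNAJC2, DNAJC9, HSPA4 and HSPE1) had log2 differences between -0.14 and 0.16. Quantile normalization, median centring, the pseudocount, the floor, the stricter filter, the mean over probe sets and the variance model left the number of members past the threshold at 21 to 26. With no filter on dim values 23 of 47 members passed, 19 of the 24 calls kept and 4 dim members added, and the fit over probe sets gave 33 of 55. Leaving out 1 array gave 19 to 24 past the threshold, 6 to 9 higher and 13 to 15 lower; the number higher was 6 without control replicate 1 and 6 without control replicate 2, against 10 with all arrays. Against a minimum fold of 1.5, 5 members passed, 0 higher and 5 lower, and 1 partner gene; that test asks for a larger difference by construction. Members near 0 that never passed changed sign: DNAJB12 was 0.02 with quantile normalization, 0.02 without PSMA replicate 4 and 0.01 without control replicate 3, HSPA9 was 0.01 with quantile normalization and 0.01 without PSMA replicate 4, and HSPA14 was -0.01 without control replicate 1. With 1 array left out they ran from -0.04 to 0.02 (DNAJB12), -0.02 to 0.01 (HSPA9) and -0.01 to 0.05 (HSPA14). DNAJC17 passed with quantile normalization (0.19), among others, DNAJC22 without PSMA replicate 4 (0.23) and DNAJB14 without control replicate 3 (-0.27). HSPA13 turned to -0.15 and passed (limma adjusted p = 0.0289) when its probe sets, which disagree, were averaged. No paired analysis was possible because the groups share no replicate numbers (1 to 3 and 4 to 6). Dim probe sets limit what can be said of the 10 members below the filter.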
